A study of Mus musculus with 6 samples.

Results

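The uncoupling proteins are carriers of the mitochondrial inner membrane, and 6 mouse genes encode them or their closest brain and kidney relatives: Ucp1, Ucp2, Ucp3, Slc25a27 (also called UCP4), Slc25a14 (UCP5) and Slc25a30 (KMCP1). They were chosen by name, and a probe was taken as theirs where its RefSeq accession belonged to one of them. This gave 11 probes for the 6 genes, out of 56605 probes and 23462 named genes on the array. Of these probes 6 were bright enough to be tested, and they covered 5 of the 6 genes, against 13127 genes tested on the whole array.

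The samples were microglia, the resident macrophages of the brain, from male mice aged 10 weeks, with 3 arrays for each of 2 genotypes. All animals, on a C57BL/6 background, have an engineered PGC-1α allele with loxP sites and an eGFP reporter, and PGC-1αf/f littermates with this allele alone served as controls. mPGC-1α animals carry it together with Cx3cr1-CreERT2, a tamoxifen-activated recombinase placed in the Cx3cr1 locus, so that PGC-1α is switched on in cells that use this promoter. Cx3cr1 is active in microglia and also in other macrophages and monocytes, and the insertion sits in a gene that microglia themselves express. The methods describe tamoxifen treatment followed by an interval for specific induction, but not array by array. The paper states that this interval ensures that microglia overexpress PGC-1α and macrophages do not. Cells were pulled out of dissociated brain with magnetic beads against P2RY12, a surface receptor of microglia, and the RNA was amplified before labelling. Nothing states whether each array came from 1 animal or from a pool, so the p-values measure only the spread between these samples, which may be technical.

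Uncoupling proteins let protons, or metabolites that exchange with them, cross the inner membrane without ATP being made. Ucp1 does this on a large scale in brown fat, where fatty acids open it and purine nucleotides close it, and the energy leaves as heat. PGC-1α is a transcriptional coactivator that was first described as a cold-induced partner of nuclear receptors on the Ucp1 gene, and it is known as a broad driver of mitochondrial biogenesis. Ucp2 is the form that macrophages and microglia use, and it is known for exporting carbon metabolites from mitochondria and for limiting the release of oxygen radicals. Ucp3 is best known from skeletal muscle and brown fat. Slc25a27 and Slc25a14 are best known from brain, mainly from neurons, and Slc25a30 was described in kidney.

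Nuclear receptors, the usual partners of PGC-1α, bind DNA through the half-site AGGTCA. The bases just before the transcription start are shown for the 3 classical uncoupling protein genes, because these are the members whose link to such receptors is best established. The sequences are from RefSeq (GRCm38.p6), read 5′ to 3′ on the strand of the gene, and capitals mark each AGGTCA on either strand.
Ucp1 (chr8:83290098-83290347, plus strand): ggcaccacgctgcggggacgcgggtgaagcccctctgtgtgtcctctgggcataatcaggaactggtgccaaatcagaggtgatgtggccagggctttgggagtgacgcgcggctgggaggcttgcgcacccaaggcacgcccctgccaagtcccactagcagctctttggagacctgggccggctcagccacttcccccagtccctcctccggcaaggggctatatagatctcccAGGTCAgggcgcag
Ucp2 (chr7:100493108-100493336, plus strand): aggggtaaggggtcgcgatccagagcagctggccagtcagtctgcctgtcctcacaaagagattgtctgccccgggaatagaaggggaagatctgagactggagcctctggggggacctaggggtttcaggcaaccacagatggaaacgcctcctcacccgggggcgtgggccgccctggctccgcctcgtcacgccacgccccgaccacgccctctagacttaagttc
Ucp3 (chr7:100472741-100472990, plus strand): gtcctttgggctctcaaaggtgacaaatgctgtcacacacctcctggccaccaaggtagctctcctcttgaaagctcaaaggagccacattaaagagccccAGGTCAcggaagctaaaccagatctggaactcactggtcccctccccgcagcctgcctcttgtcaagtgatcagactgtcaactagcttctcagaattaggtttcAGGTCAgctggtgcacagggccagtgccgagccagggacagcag
Ucp1 holds 1 half-site, from base -14 to base -9 counted from the start of the transcript. Ucp3 holds 2, from -149 to -144 and from -44 to -39. Neither the Ucp2 window, nor the 3 windows of Slc25a14, nor that of Slc25a30 holds one. Among 32851 RefSeq windows of the same kind 14.0% hold the half-site. The longer element TCAAGGTCA, which contains the half-site and is known for binding estrogen-related receptors, was in none of the windows of these 5 members and in 0.387% of all windows. These matches describe letters, not binding, and bases further upstream were not searched. Ucp3 and Ucp2 are neighbours on chromosome 7, with no gene between them in the annotation.

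Signals are given as log2 of the processed intensity minus the 75th percentile of the same array, so that 0 marks a probe as bright as that percentile. The 6 arrays had between 27025 and 30272 spots well above background and no saturated spot. Of the 10 microglial markers all were well above background on all arrays. Both arrays numbered 3 stood apart. PGC-1αf/f replicate 3 correlated with the others at a mean of 0.928, where the remaining 5 arrays reached 0.962 to 0.972, and its mean level of 10 leukocyte markers was 0.06, against 2.12 to 2.84 elsewhere. On mPGC-1α replicate 3, 0 of 7 probes for Y-linked genes were well above background, against 5 or 6 on the other arrays, although it is labelled male. The transgene's own gene, Ppargc1a, differed by 0.80 ± 0.35 (log2, SE, limma adjusted p = 0.306) on its brighter probe, with overlapping groups, so the overexpression did not pass the test here. It was 0.44 without PGC-1αf/f replicate 3. A second Ppargc1a probe gave 0.59 (adjusted p = 0.445). Each tested member is therefore given with and without these arrays. The PGC-1αf/f arrays lay in the upper row of the slide and the mPGC-1α arrays in the lower row, so row and genotype cannot be told apart.

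No uncoupling protein gene passed the test between mPGC-1α and PGC-1αf/f microglia. Among the 6 tested probes 0 reached an adjusted p under 0.05 in limma, where 0.0792% of all 25257 probes did, and the smallest adjusted p of a member was 0.280. At an unadjusted p under 0.05 the count was 1 of 6, a lower value, beside 9.21% of all probes lower and 7.53% higher at that level. Slc25a27 was the one member whose groups did not overlap, and it was lower in mPGC-1α. Groups did not overlap in that direction for 13.7% of all probes with values on the 6 arrays, and in the other direction for 11.4%. The median difference over the 5 genes with 6 values was -0.07, beside 0.03 over 12302 genes. Its sign was not stable: it was 0.03 without PGC-1αf/f replicate 1 and 0.04 without mPGC-1α replicate 3. Scaling each array by its median moved the members' median to -0.20 and that of all tested probes to -0.14. Relative to all tested probes the members' median was -0.06 before and after that scaling.

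**Figure D1:**
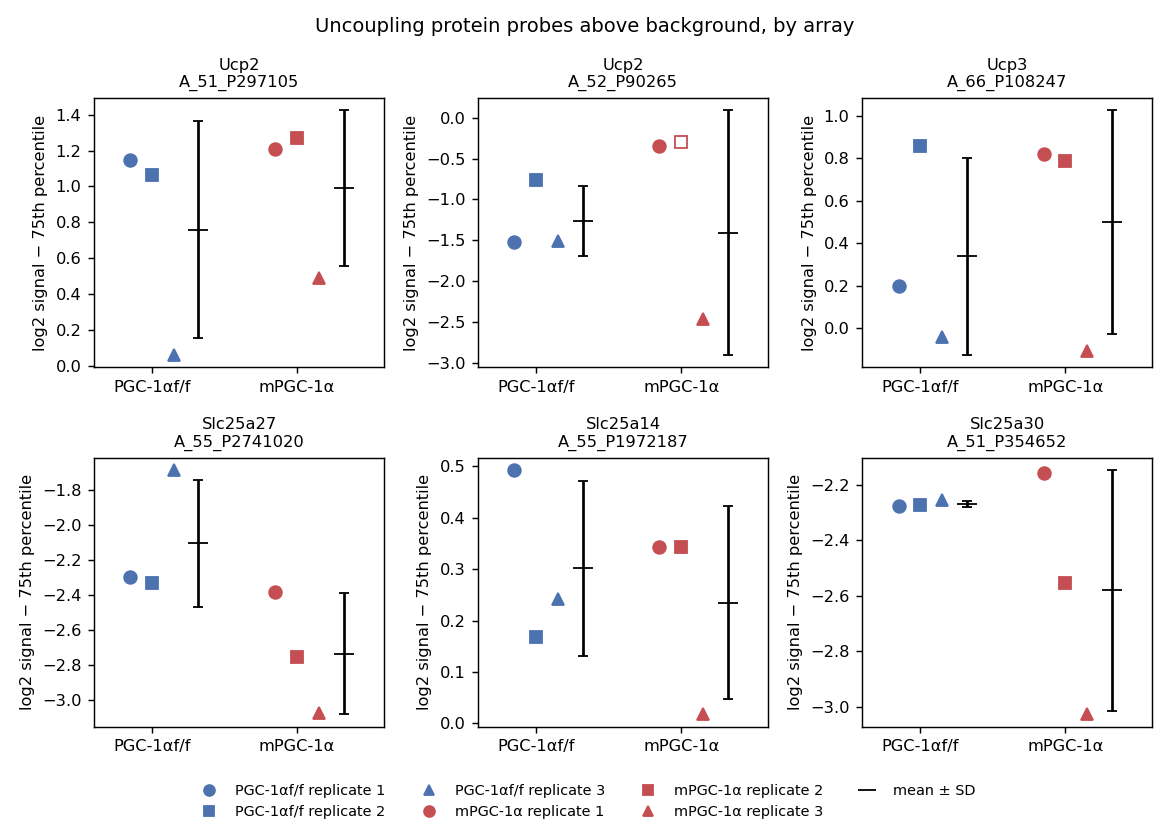
Log2 signal, relative to the 75th percentile of each array, for the 6 tested uncoupling protein probes, 1 panel a probe, with blue for PGC-1αf/f, red for mPGC-1α, a marker shape for the replicate number and mean ± SD in black beside each group. The open symbol is a spot that was left out as non-uniform; in the Slc25a27 panel all 3 red points lie below all 3 blue points, and in the other panels the groups overlap.

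Ucp2, the macrophage form, was measured by 2 probes. On A_51_P297105 the PGC-1αf/f arrays read 1.15, 1.06 and 0.06 and the mPGC-1α arrays 1.21, 1.27 and 0.49. Both arrays numbered 3 lay below the other 4, and the groups overlapped. The means were 0.76 ± 0.61 and 0.99 ± 0.44 (SD, n = 3 each). Their difference was 0.23 (limma adjusted p = 0.752), which is 1.17-fold with a 95% interval from 0.665-fold to 2.07-fold. That interval holds a fall as well as a rise of the Ucp2 message. With PGC-1αf/f replicate 3 left out the sign turned, to -0.12, and without mPGC-1α replicate 3 it was 0.48. The spread within groups, a pooled SD of 0.53, was larger than that of 91.4% of tested probes. On the array where the leukocyte markers were lowest, PGC-1αf/f replicate 3, Ucp2 was lowest as well, but on mPGC-1α replicate 3 it was low beside the highest marker mean, 2.84. The part of leukocyte RNA in the Ucp2 values was not tested.

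The second Ucp2 probe, A_52_P90265, read -1.52, -0.76 and -1.51 in PGC-1αf/f. In mPGC-1α it read -0.34 and -2.47, and the spot on replicate 2 was left out because the scanner software marked it as non-uniform. The remaining mPGC-1α arrays lay on either side of all controls. The difference was -0.14 with a 95% interval from -1.67 to 1.38 (adjusted p = 0.923), and it became 0.23 with the marked spot kept. Without mPGC-1α replicate 3 it was 0.92, with PGC-1αf/f replicate 3 left out it was -0.26, and without mPGC-1α replicate 1 it was -1.20. The 2 probes' differences stood 0.23 apart over the 5 arrays that had both (exact permutation test, two-sided, p = 0.7, where 0.1 is the smallest p this design allows). The design was too small for this test to pass the threshold, so it does not show that the probes read alike.

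Ucp3 was measured by A_66_P108247. Its PGC-1αf/f arrays read 0.20, 0.86 and -0.04, and its mPGC-1α arrays 0.82, 0.79 and -0.11. Both arrays numbered 3 were again the lowest of their groups, as for the first Ucp2 probe. The means were 0.34 ± 0.46 and 0.50 ± 0.53, and the difference was 0.16 with a 95% interval from -0.62 to 0.94 (adjusted p = 0.825). With PGC-1αf/f replicate 3 left out it came to -0.03, and without mPGC-1α replicate 3 it was 0.46. Its pooled SD of 0.50 was above that of 90.1% of tested probes.

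Ucp1, the brown fat form, was close to background. Its probe A_51_P426353 was well above background on PGC-1αf/f replicate 3 alone, where the intensity was 182. The other PGC-1αf/f arrays read 25.6 and 69.6, and the mPGC-1α arrays 75.4, 96.2 and 115. These intensities are not scaled, and PGC-1αf/f replicate 3 had the highest 75th percentile, 2138, against 1012 to 1667 elsewhere. Relative to the 75th percentile of each array, log2 values were -5.31, -4.48 and -3.56 in PGC-1αf/f and -4.08, -4.12 and -3.67 in mPGC-1α. Neither group had Ucp1 well above background on all of its arrays, so the gene did not enter the test and no fold is given. Of 8 markers of brown adipocytes 5 never rose clearly above background, among them Adipoq, Lep and Plin1. Another of the 8, Cidea, was above background on all arrays. It was 0.91 higher in mPGC-1α, with groups that did not overlap, but did not pass the adjusted test.

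**Figure D2:**
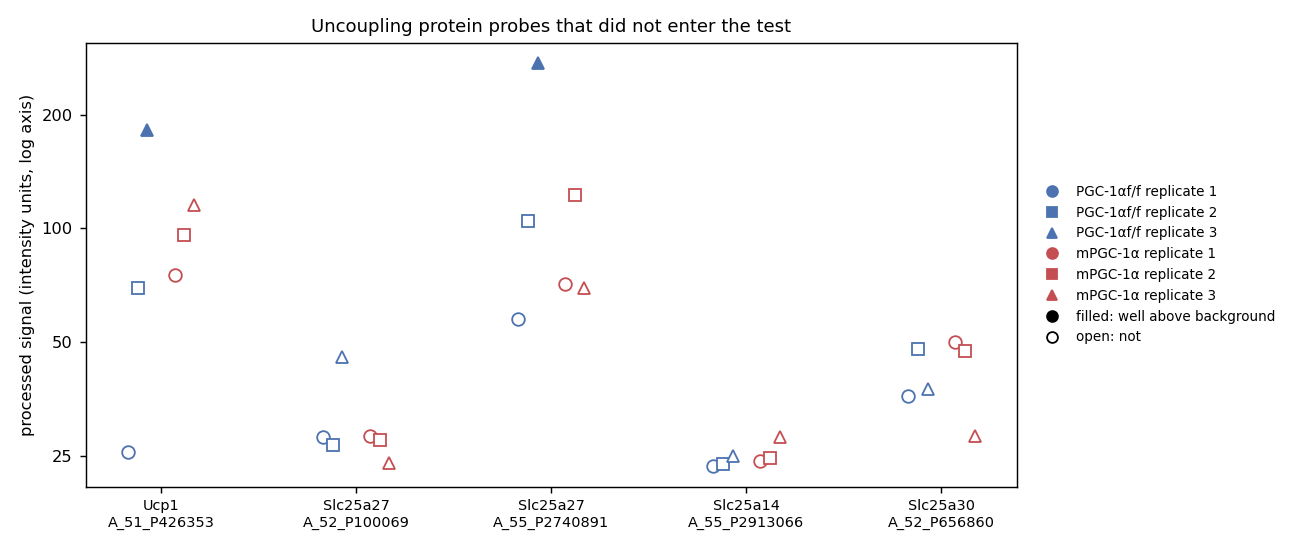
Processed signal in intensity units on a log axis for the 5 uncoupling protein probes that did not enter the test, with blue for PGC-1αf/f, red for mPGC-1α, filled symbols where the spot was well above background and open symbols where it was not. The 2 filled points, 182 for Ucp1 and 274 for one Slc25a27 probe, belong to PGC-1αf/f replicate 3. Intensities are not scaled between arrays, and that array had the highest 75th percentile.

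Slc25a27, the carrier best known from neurons, was lower in mPGC-1α microglia on the single probe bright enough to test, but the difference did not pass the adjusted test. On A_55_P2741020 the PGC-1αf/f arrays read -2.30, -2.33 and -1.68. The mPGC-1α arrays read -2.38, -2.75 and -3.07. All 3 mPGC-1α values lay under all 3 control values, although mPGC-1α replicate 1 came close to the controls. The means were -2.10 ± 0.36 and -2.74 ± 0.35, and the difference was -0.63 ± 0.25 (SE), 0.645-fold, with a 95% interval from -1.22 to -0.04. limma gave an unadjusted p of 0.0386 and an adjusted p of 0.280.

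Much of the Slc25a27 difference came from the arrays numbered 3, which held the highest control and the lowest mPGC-1α value. It was -0.42 without PGC-1αf/f replicate 3, -0.46 without mPGC-1α replicate 3 and -0.25 without both, with unadjusted p-values of 0.0937, 0.127 and 0.212. Within the slide columns that hold an array of each group, the difference was -0.08 in column 1 and -0.42 in column 2. It was negative in 18 of 18 alternative settings, between -0.81 and -0.25, and its adjusted p ran from 0.199 to 1. The filters, the replicate block, the eBayes options and keeping outlier spots could not move this difference, which stayed at -0.63. The other settings reused the same arrays, so the count is not independent evidence of direction.

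A second Slc25a27 probe, A_55_P2740891, was well above background on PGC-1αf/f replicate 3 alone, with an intensity of 274. The other controls read 57.3 and 104, and the mPGC-1α arrays 71.4, 122 and 69.6. These intensities are not scaled. Relative to the 75th percentile of each array, log2 values were -4.14, -3.89 and -2.96 in PGC-1αf/f and -4.16, -3.77 and -4.40 in mPGC-1α. The last probe, A_52_P100069, was well above background on no array, with intensities from 23.8 to 45.5. Neither could bear on the direction in the mPGC-1α group.

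Oligodendrocyte markers moved with Slc25a27 from array to array. The mean level of the 7 markers above background on all arrays was 0.55, 0.59 and 0.92 in PGC-1αf/f and 0.34, 0.26 and 0.09 in mPGC-1α. Control replicate 3 was highest and mPGC-1α replicate 3 lowest for the markers and for Slc25a27 alike, and 6 of the 7 markers were lower in mPGC-1α, 0 of them past the adjusted threshold. No oligodendrocyte marker of the list of 8 was below background on all arrays. Neuronal markers were ordered otherwise. Their mean was 0.10, -0.27 and -0.65 in PGC-1αf/f and 0.10, -0.38 and -0.09 in mPGC-1α, and 2 of 10 neuronal markers, Nefm and Slc17a7, were well above background on no array. The 4 microglial markers with values on all arrays were lower in mPGC-1α as well, with a median difference of -0.26, 0 of them past the adjusted threshold. Their mean was 3.73, 3.64 and 3.56 in PGC-1αf/f and 3.41, 3.29 and 3.40 in mPGC-1α, and these means did not overlap. The part of oligodendrocyte or microglial RNA in the Slc25a27 difference was not tested. In these bulk samples, fewer cells of a type and less RNA per cell cannot be told apart.

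**Figure D3:**
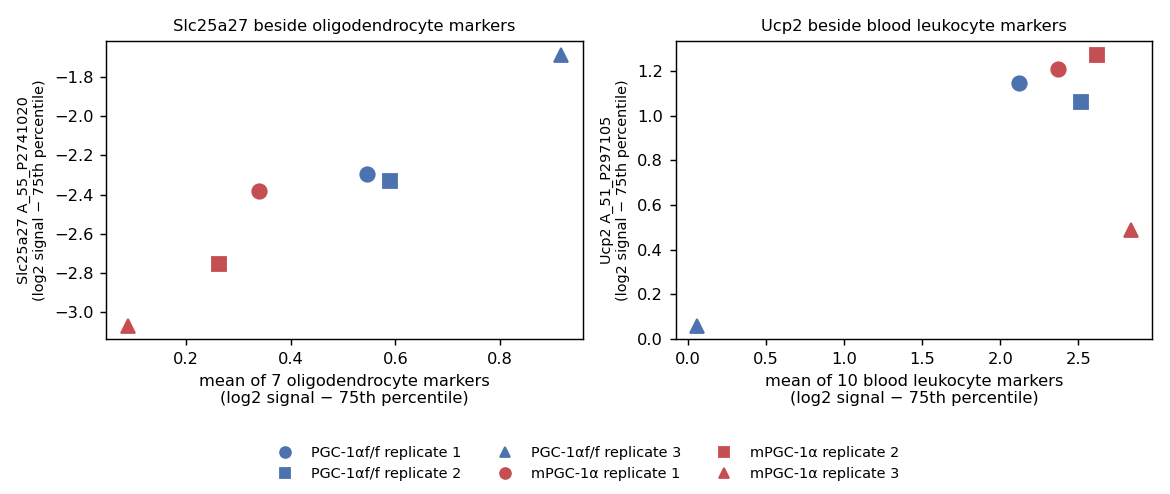
Slc25a27 against the mean of 7 oligodendrocyte markers (left) and Ucp2 against the mean of 10 blood leukocyte markers (right), both axes in log2 signal relative to the 75th percentile of each array, 1 point an array, blue for PGC-1αf/f and red for mPGC-1α. On the left the points run from mPGC-1α replicate 3 at 0.09 and -3.07 to PGC-1αf/f replicate 3 at 0.92 and -1.68; on the right PGC-1αf/f replicate 3 sits alone at 0.06.

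Slc25a14, the other brain carrier, had the narrowest interval around its difference of the tested members. On A_55_P1972187 the PGC-1αf/f arrays read 0.49, 0.17 and 0.24 and the mPGC-1α arrays 0.34, 0.34 and 0.02. The groups overlapped, and mPGC-1α replicate 3 was the lowest of all. The means were 0.30 ± 0.17 and 0.23 ± 0.19, and the difference was -0.07 with a 95% interval from -0.45 to 0.31 (adjusted p = 0.853). The sign turned in 4 of 18 alternative settings, in which the values lay between 0.01 and 0.07. It was 0.04 without mPGC-1α replicate 3, and -0.10 with PGC-1αf/f replicate 3 left out. The probe for another transcript, A_55_P2913066, was well above background on no array, with intensities from 23.4 to 28.0.

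Slc25a30, the kidney carrier, was almost equal on the 3 control arrays and spread out on the mPGC-1α arrays. On A_51_P354652 the controls read -2.28, -2.27 and -2.26, and the mPGC-1α arrays -2.16, -2.55 and -3.03. One mPGC-1α value thus lay above the controls and the others below. The means were -2.27 ± 0.01 and -2.58 ± 0.43, and the difference was -0.31 ± 0.22 (SE) with a 95% interval from -0.84 to 0.21 (adjusted p = 0.490). Without mPGC-1α replicate 3 it was -0.09, and without mPGC-1α replicate 1 it was -0.52 (unadjusted p = 0.0348). Leaving out PGC-1αf/f replicate 3 gave -0.31. Its second probe, A_52_P656860, was well above background on 0 of 6 arrays, with intensities from 28.2 to 49.8.

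**Figure D4:**
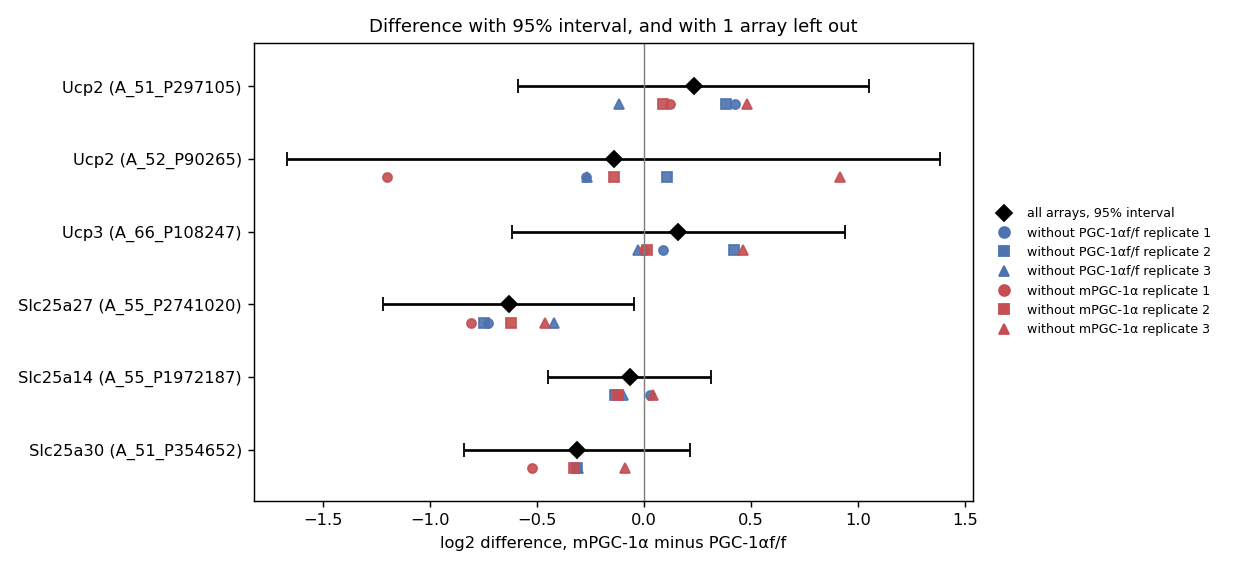
Log2 difference, mPGC-1α minus PGC-1αf/f, for the 6 tested uncoupling protein probes, with a black diamond and 95% interval for all arrays and, under it, coloured symbols for the value with the named array left out. The Slc25a27 symbols all lie left of 0, from -0.81 to -0.42, while those of both Ucp2 probes, Ucp3 and Slc25a14 lie on both sides.

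The 31 other SLC25 carriers with values on all arrays, a family that moves metabolites, nucleotides and ions across the inner membrane, were spread on both sides of 0. The list held 46 genes, and of those measured 16 were higher and 15 lower, with differences from -0.49 to 1.35 and a median of 0.03. With 1 array left out this median ran from -0.05 to 0.06. Scaling each array by its median gave 12 of 31 higher and a median of -0.10, with all tested probes at -0.14. Relative to all tested probes the list's median was 0.03 before and 0.04 after that scaling. In limma 0 passed the adjusted threshold, and 2 higher and 2 lower had an unadjusted p under 0.05, beside 1004 higher and 703 lower of all 12302 genes. The groups did not overlap for 3 carriers in each direction, 19.4% of the 31, beside 22.9% of all genes. Slc25a12, the aspartate-glutamate carrier, differed by 0.58 (adjusted p = 0.221), and Slc25a33, a pyrimidine nucleotide carrier, by 0.49 (adjusted p = 0.234). Slc25a24, a calcium-regulated ATP-Mg/phosphate carrier, differed by 1.35 (adjusted p = 0.348), which fell to 0.52 without PGC-1αf/f replicate 3. On the lower side stood Slc25a37, the mitoferrin that brings iron in for haem synthesis, at -0.49 (adjusted p = 0.214). Slc25a26, the S-adenosylmethionine carrier, stood at -0.39 (adjusted p = 0.254), and Slc25a28, the second mitoferrin, at -0.27 (adjusted p = 0.341), or -0.16 without both arrays numbered 3. The Slc25a27 difference of -0.63 lay below those of these 31 carriers with all arrays in use, but without both arrays numbered 3 it was -0.25, above Slc25a37 at -0.48 and Slc25a26 at -0.35.

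**Figure D5:**
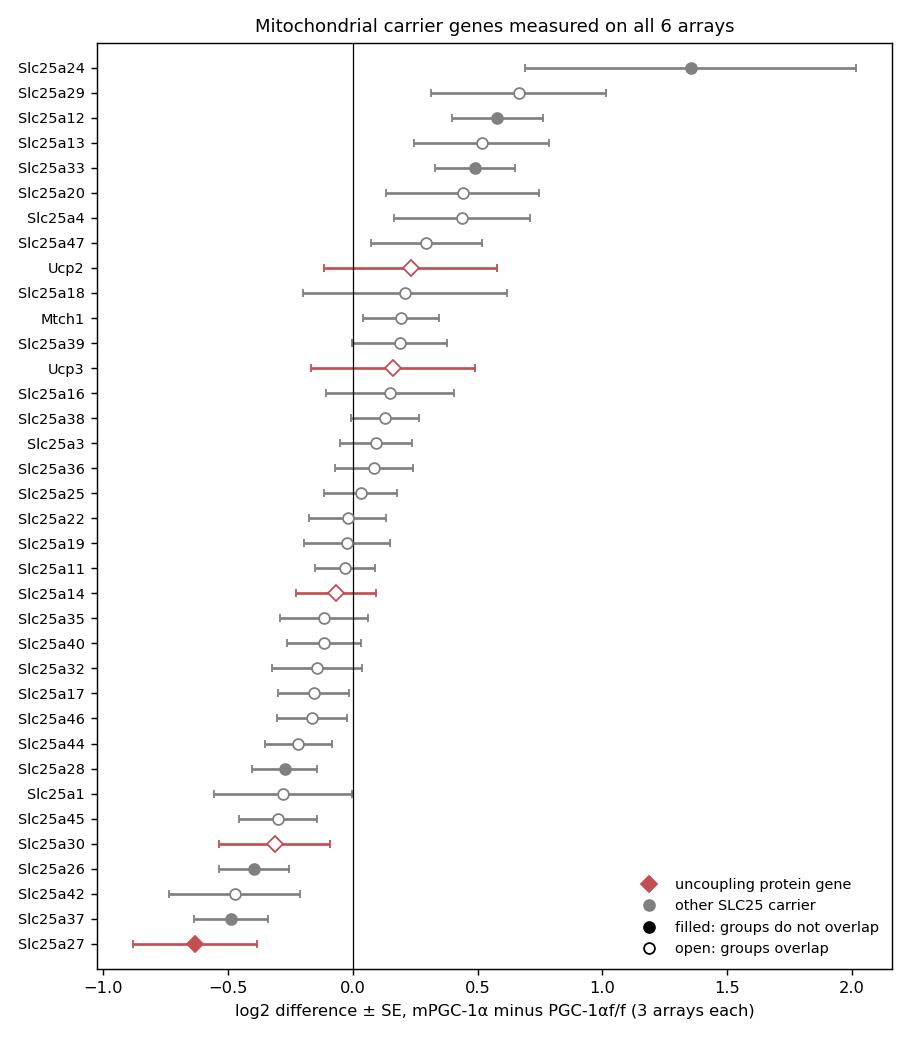
Log2 difference ± SE, mPGC-1α minus PGC-1αf/f, 3 arrays each, for the 31 SLC25 carriers and the 5 uncoupling protein genes with values on all 6 arrays, sorted by size, with red diamonds for uncoupling protein genes and filled symbols where the groups did not overlap. Slc25a24 is at the top at 1.35 and Slc25a27 at the bottom at -0.63, and the red points are spread along the order.

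The adenine nucleotide carriers, which exchange ATP for ADP and also leak protons, gave no call either. Slc25a4, the muscle and brain form, read 3.18, 2.45 and 2.19 in PGC-1αf/f and 3.15, 2.78 and 3.19 in mPGC-1α, a difference of 0.44 (adjusted p = 0.437) with overlapping groups. It was 0.72 without PGC-1αf/f replicate 1 and 0.23 without PGC-1αf/f replicate 3. Slc25a5, the form of dividing cells, kept 1 mPGC-1α value, 4.03, after marked spots were left out, against 4.07, 3.75 and 3.58 in the controls. Slc25a31, the germ cell form, was above background on no array.

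The list of regulators of uncoupling protein genes, nuclear receptors and their partners with Ppargc1a itself among them, held 18 measured genes of 20. Of these 12 were higher and 6 lower in mPGC-1α, 0 passed the adjusted threshold in limma, and the median was 0.06. An unadjusted p under 0.05 was reached by 2 higher and 1 lower, beside the 1004 and 703 of 12302 genes in all, and the groups did not overlap for 3 higher and 2 lower, 27.8% beside 22.9% of all genes. Scaling each array by its median moved the median of all tested probes to -0.14 and that of this list to -0.07, with 7 of 18 higher. Relative to all tested probes the list's median was 0.06 before and 0.07 after that scaling. The estrogen-related receptors Esrrb and Esrrg, which work with PGC-1α on mitochondrial genes, each differed by 1.05 (adjusted p = 0.234 and 0.208) with groups that did not overlap, while Esrra, the most widely expressed of them, differed by 0.11 (adjusted p = 0.696), or 0.04 without mPGC-1α replicate 2 and 0.17 without mPGC-1α replicate 3. Leaving out PGC-1αf/f replicate 3 gave 0.65 for Esrrb and 0.76 for Esrrg. Foxo3 stood at 0.42 (adjusted p = 0.307), or 0.26 without mPGC-1α replicate 3. Foxo1, a forkhead factor of insulin signalling, stood at -0.37 (adjusted p = 0.263) and Rxrb, a common partner of nuclear receptors, at -0.06 (adjusted p = 0.825), or -0.04 without PGC-1αf/f replicate 3. Hnf4a was above background on no array.

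Other genes of the brown fat thermogenic programme were higher in mPGC-1α more often than lower, without a call. Of the 14 genes 9 had values on all arrays, 7 higher and 2 lower, beside 6650 higher and 5652 lower of all genes, and the groups did not overlap for 4, all of them higher, which is 44.4% of the 9 beside 22.9% of all genes in either direction. In limma 0 passed the adjusted threshold, and 3, all higher, had an unadjusted p under 0.05, where 1004 of 12302 genes were higher at that level. The median was 0.55, but it was 0.11 without PGC-1αf/f replicate 3, the array that also stood apart in its leukocyte markers. Some markers of other cells were also higher in mPGC-1α. All 10 measured leukocyte markers, of 13, were higher in mPGC-1α, with a median of 1.08, or 0.29 without that array. All 5 measured markers of endothelial and mural cells, of 8, were higher, with a median of 0.51, or 0.06 without it, and Rgs5 and Tek were above background on no array. The mean of the endothelial and mural markers was -0.74, -0.82 and -2.14 in PGC-1αf/f and -1.28, -0.55 and -0.39 in mPGC-1α. Neuronal markers were higher for 6 of 7, with a median of 0.14, or -0.08 without PGC-1αf/f replicate 3. Astrocyte markers were higher for 3 of 7, with a median of -0.01, and oligodendrocyte and microglial markers were mostly lower, as given above. The part of other cells' RNA in the brown fat genes was not tested. Prdm16, a zinc finger factor that drives brown fat identity, read -0.12, -0.04 and -0.57 in PGC-1αf/f and 0.56, 0.62 and 0.54 in mPGC-1α, a difference of 0.82 (adjusted p = 0.130), or 0.66 without that array. Cidea, a lipid droplet protein, differed by 0.91 (adjusted p = 0.254), or 0.53 without it. Cox8b, a subunit of cytochrome oxidase found in muscle and brown fat, differed by 0.71 (adjusted p = 0.269), or 0.45 without it. Ebf2, Elovl3 and Slc27a2 were above background on no array. Ucp1, the defining gene of this programme, thus stayed near background where Prdm16, Cidea and Cox8b were measurable.

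The genes most like each member over the 6 arrays were ranked by Pearson's r among 12301 others, as a description in which all values share the same 6 arrays. For the first Ucp2 probe they were Srp19 (r = 0.995), Dipk1b (0.986) and Stim2 (0.983), which were also lowest on PGC-1αf/f replicate 3. For Ucp3 they were Sars2 (0.991), Cdh13 (0.977) and Pgd (0.966). For Slc25a27 they were Tiprl (0.994), Klhl20 (0.991) and Dennd4a (0.991), whose differences were -0.42, -0.36 and -0.42. For Slc25a14 they were 1700022H01Rik (0.991), Calu (0.981) and Gtf2i (0.977). For Slc25a30 they were Syt11 (0.994), Ube2g2 (0.993) and Ttc5 (0.992).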

How the data were processed

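RNA of 6 samples was amplified, and cDNA made from it, labelled with Cy5 (1 colour), was hybridised to Agilent mouse arrays. The authors scanned them and deposited the processed intensity of each spot from Feature Extraction 11.5.1.1, background-subtracted and not normalised between arrays. The deposited table of intensities holds the same signals, within 0.00719 on the log2 scale, and was used as an alternative. The methods name GeneSpring for normalisation and no test per gene. Intensity was taken as log2 minus the 75th percentile of the array, control and outlier spots were left out, and spots of a probe were averaged. Of 56605 probes, 25333 entered the test, being well above background on each array of 1 group or both, and 25257 gave a p. limma 3.58.1 (R 4.3.3; lmFit, eBayes, Benjamini-Hochberg, threshold 0.05) tested mPGC-1α against PGC-1αf/f, with 3 samples each and no covariate. It was tested on simulated data. The number of arrays limits the precision. Of the probes, 33767 were named by accession through the RefSeq table of GRCm38.p6, used for names and neighbours only, since the arrays were annotated on mm9. Promoters came from RefSeq; Slc25a27 was not among them. Members and gene lists were chosen with earlier results of these data known. Named were all members, the 3 genes most like each member, Ppargc1a, Cx3cr1, Slc25a4, Slc25a5 and Slc25a31. The 3 highest and 3 lowest genes of each list among those whose groups did not overlap were named as well. Esrra, Ebf2, Elovl3, Slc27a2 and Hnf4a were added after their values were seen. Adipoq, Lep, Plin1, Nefm, Slc17a7, Rgs5 and Tek were named as markers above background on no array. The comparison of probes of 1 gene was planned for probes with values on all 6 arrays; the second Ucp2 probe lost 1 spot, so 5 arrays were used. Replicate numbers were in the labels, but the deviations of same-numbered arrays correlated at 0.14, 0.13 and 0.02, so they were not taken as pairs. Alternatives changed the scaling, the background correction, the filter on dim probes, the treatment of outlier spots, the blocks, the weights and the arrays used. Leaving out both arrays numbered 3, and the lists and named genes without single arrays, were chosen after seeing the data.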

Additional observations from a re-analysis of the deposited data

How the results depend on the processing

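No uncoupling protein probe passed the threshold in limma under any of 18 alternative settings. The count over all probes was 20, and it was 11 with quantile normalization, with a median shift and with normexp and quantile normalization, 456 on the deposited table without normalization, 9 with no filter on dim probes, 4 with a filter requiring all arrays, 138 with the slide column as random block, 754 with array weights, 0 to 25 when leaving out 1 array at a time, and 3 without both arrays numbered 3. With the replicate block it was 0, beside 2388 higher and 2293 lower probes at an unadjusted p under 0.05; members stayed at 0 calls. Slc25a27 and Slc25a30 kept their direction in 18 of 18 settings. For both, the filters, the replicate block, the eBayes options and keeping outlier spots left the difference unchanged, and the other settings reused the same arrays. The second Ucp2 probe (A_52_P90265) turned to 0.109 with the replicate block, 0.0834 with the slide column as block, 0.227 with outlier spots kept and 0.80 without both arrays numbered 3, and ran from -1.20 to 0.92 with 1 array left out. Slc25a14 turned to 0.0695 with array weights and 0.0124 without both arrays numbered 3, and ran from -0.133 to 0.0421 with 1 array left out. The first Ucp2 probe ran from -0.12 to 0.48, and Ucp3 from -0.0286 to 0.464. The gap between the Ucp2 probes ran from -0.47 to 0.93 with 1 array left out. The causes were not tested. Probes near background, those of Ucp1 included, give no measured difference.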

Other observations

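Cx3cr1, the locus that carries the recombinase, differed by -0.51, mPGC-1α minus PGC-1αf/f, on its probe with values on all arrays (A_55_P2007964, log2 scale, adjusted p = 0.194). The groups did not overlap on that probe. Another Cx3cr1 probe, A_52_P99810, with a value missing in each group, differed by -0.85 (limma adjusted p = 0.275).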
